A study of Homo sapiens with 18 samples.

Results

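Hic-5 depletion was examined in cells that had also been depleted of BRM, by comparing the glucocorticoid receptor (GR) binding regions (GBR) called in siBRM/siHic5 cells with those called in siBRM/siNS cells. A siBRM/siHic5 GBR with no overlapping siBRM/siNS GBR was called gained, a GBR overlapped in the other list by at least 1 bp was called shared, and a siBRM/siNS GBR with no siBRM/siHic5 partner was called lost. Of 3383 siBRM/siHic5 GBR, 2161 were gained and 1222 were shared. Of 1278 siBRM/siNS GBR, 1230 were shared and 48 were lost. The 6 lists of the series held 20642 GBR in all.

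All samples were U2OS-GRα cells, an established human osteosarcoma line with a stable GRα transgene, so the receptor was not at its endogenous level. Each culture received a pair of siRNAs for 48 h and then the synthetic glucocorticoid dexamethasone (dex, 100 nM) for 1 h, and no group was left without hormone. The pairs were siBRM with siHic5 or with the non-specific siNS, siCHD9 with siHic5 or siNS, siHic5 with siNS, and siNS alone (siNS/siNS). GR ChIP-seq comprised 12 ChIP libraries, 2 per group, and 6 inputs, and each list was called on the pooled replicates of its group. Each condition was therefore 1 list without replicate spread. Peak lists hold no transcript levels, so neither the depletions nor markers of the cell type could be checked in them. Read totals of the libraries are given by the study but not in the files and were not used here, and a GBR missing from a list may still have carried GR below the threshold of that list.

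GR is a steroid-activated transcription factor that enters the nucleus with hormone and binds DNA mostly at glucocorticoid response elements (GRE), palindromes of short hexamers, commonly in chromatin shared with other factors such as AP-1. BRM (SMARCA2) is an ATPase of the SWI/SNF chromatin remodeling complexes, which move or evict nucleosomes, and CHD9 is an ATPase of the CHD remodeler family. Hic-5 (TGFB1I1) is a LIM-domain protein of the paxillin family that is found at focal adhesions and in the nucleus, where it acts as a GR coregulator. The comparison asked what the removal of Hic-5 still added to GR occupancy when BRM was depleted, and near which genes.

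The summit sequences of the strongest gained GBR are given first, since the results turn on which of them carry GR and partner motifs. Each is the plus strand of GRCh38, 101 bases centered on the summit, and capitals mark a GRE match, or an ETS match where stated. ITGA5 (chr12:54421270-54421370), SLCO2A1 (chr3:134036208-134036308, with an ETS match before the GRE), STAC2 (chr17:39222252-39222352) and CMKLR1 (chr12:108306256-108306356, ETS match first) were the 4 strongest gained GBR, and MYBPH (chr1:203172857-203172957) the strongest that was called in no other list. HIF3A (chr19:46301019-46301119, ETS match first) was the strongest shared GBR, and ARHGEF3 (chr3:56995626-56995726) and OSMR (chr5:38832016-38832116) were the strongest lost GBR, in which no capitals appear because none of the 3 motifs matched.
ITGA5: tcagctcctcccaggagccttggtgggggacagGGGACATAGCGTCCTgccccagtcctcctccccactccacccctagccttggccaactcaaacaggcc
SLCO2A1: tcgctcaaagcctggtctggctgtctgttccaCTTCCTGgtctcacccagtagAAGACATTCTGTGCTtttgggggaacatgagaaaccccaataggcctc
STAC2: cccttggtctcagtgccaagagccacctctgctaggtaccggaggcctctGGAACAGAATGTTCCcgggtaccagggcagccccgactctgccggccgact
CMKLR1: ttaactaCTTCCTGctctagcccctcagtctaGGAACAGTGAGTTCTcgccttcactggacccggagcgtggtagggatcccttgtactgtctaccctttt
MYBPH: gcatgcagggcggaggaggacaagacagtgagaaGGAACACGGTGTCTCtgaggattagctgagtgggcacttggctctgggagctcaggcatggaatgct
HIF3A: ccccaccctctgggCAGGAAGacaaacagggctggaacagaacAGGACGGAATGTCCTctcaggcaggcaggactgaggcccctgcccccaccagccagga
ARHGEF3: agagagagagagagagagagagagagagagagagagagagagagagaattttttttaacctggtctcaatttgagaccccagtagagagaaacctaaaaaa
OSMR: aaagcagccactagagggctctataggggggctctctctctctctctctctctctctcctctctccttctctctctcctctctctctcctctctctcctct

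All 6 gained or shared windows shown here held a GRE match, whereas the 2 lost windows shown were built largely of dinucleotide repeats. These windows were picked as the strongest and do not stand for their sets. Over all 48 lost GBR, 18 (37.5%, 95% Wilson interval 25.2 to 51.6) held a GRE match within 100 bp of the summit. The share was 48.0% for gained and 67.8% for shared GBR. Over all GBR, a 20-base run of a repeated unit of 1 or 2 bases lay within 100 bp of the summit in 11 of 48 lost GBR (22.9%, 95% Wilson interval 13.3 to 36.5), in 21 of 1222 shared GBR (1.72%, 1.13 to 2.61) and in 8 of 2161 gained GBR (0.370%, 0.188 to 0.729). The same was found in 2.14% of 6766 windows placed 5 kb to either side of the siBRM/siHic5 summits. The 5 strongest lost GBR all had such a run. This feature was looked at after the lost sequences had been seen, and it is given without a test.

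Hic-5 depletion left 2.65 times as many GBR in BRM depleted cells, with many gains and few losses. Gained GBR made up 63.9% of the siBRM/siHic5 list (Wilson 62.2 to 65.5), and lost GBR made up 3.76% of the siBRM/siNS list (2.84 to 4.94). These intervals, like the others below, cover counting error only. With neither remodeler depleted, the siHic5/siNS list held 9533 GBR against 2582 for siNS/siNS, a ratio of 3.69, with 7059 gained (74.0%) and 82 lost (3.18%). With CHD9 depleted, 2451 GBR stood against 1415, a ratio of 1.73, with 1128 gained (46.0%) and 87 lost (6.15%). The gain on a BRM depleted background thus lay between the other backgrounds in number, ratio and share, and with 1 list per condition the differences could not be tested.

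**Figure D1:**
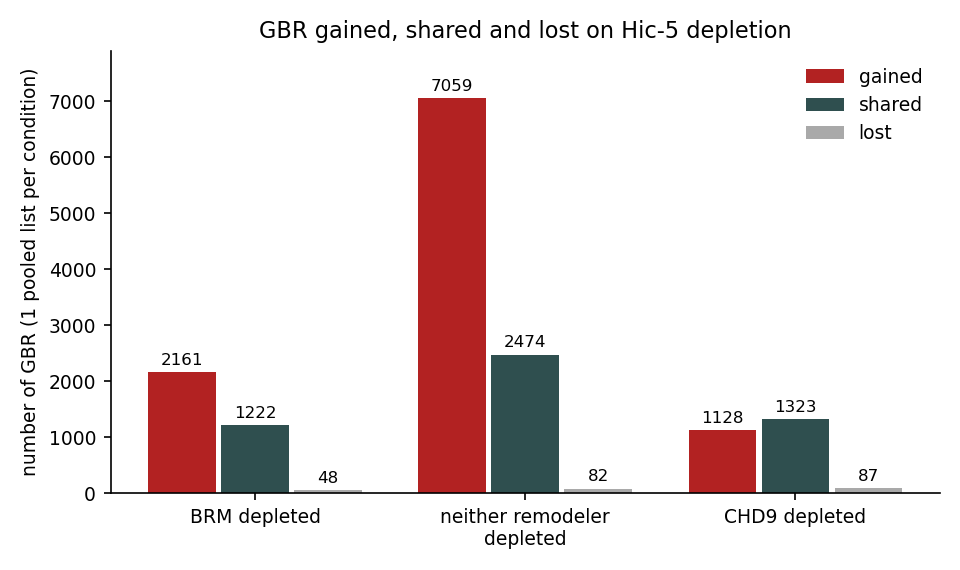
Number of GBR gained, shared and lost on Hic-5 depletion (y axis) in BRM depleted cells, in cells with neither remodeler depleted and in CHD9 depleted cells (x axis), from 1 pooled list per condition, with shared GBR counted on the Hic-5 depleted list. In BRM depleted cells 2161 GBR were gained and 48 were lost.

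The lists themselves also differed in score, as the −log10 p-value of a peak is called below. The lowest −log10 q-value was 14.2 in the siBRM/siHic5 list and 7.26 in the siBRM/siNS list, and the highest −log10 p-value was 451 and 156. Of the 1222 shared GBR, 1218 had a higher −log10 p-value in the siBRM/siHic5 list, with medians of 66.8 and 19.2. The score of a peak rises with read depth as well as with enrichment, and the part of depth in the number of gained GBR was not tested. With the q-value threshold of the siBRM/siHic5 list applied to both lists, 2753 GBR were gained and 4 were lost. With the 1000 strongest GBR of each list, 258 were gained and 250 were lost, a balance that lists of equal length fix in advance.

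Gained GBR were among the weaker GBR of their own list. Absence from the lower-scoring siBRM/siNS list defined them, so a lower score is partly built into this comparison, which is given as a description. Their median −log10 p-value was 26.0 (quartiles 21.3 and 34.7, range 17.8 to 181), against 66.8 (42.7 and 109, up to 451) for shared GBR. When the 3383 GBR were divided into 10 groups by −log10 p-value, gained GBR made up 5 of 339 (1.47%) in the strongest group, 16.6% in the second, 38.5% in the third and 59.2% in the fourth. The share went from 69.6% in the fifth group to 95.9% in the weakest. Gained GBR were also narrower, with a median width of 475 bp against 600 bp. The 48 lost GBR had a median −log10 p-value of 13.3 in the siBRM/siNS list, and 44 of them (91.7%) lay below the lowest q-value threshold of the siBRM/siHic5 list, as did 597 (48.5%) of the 1230 siBRM/siNS GBR that were shared.

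**Figure D2:**
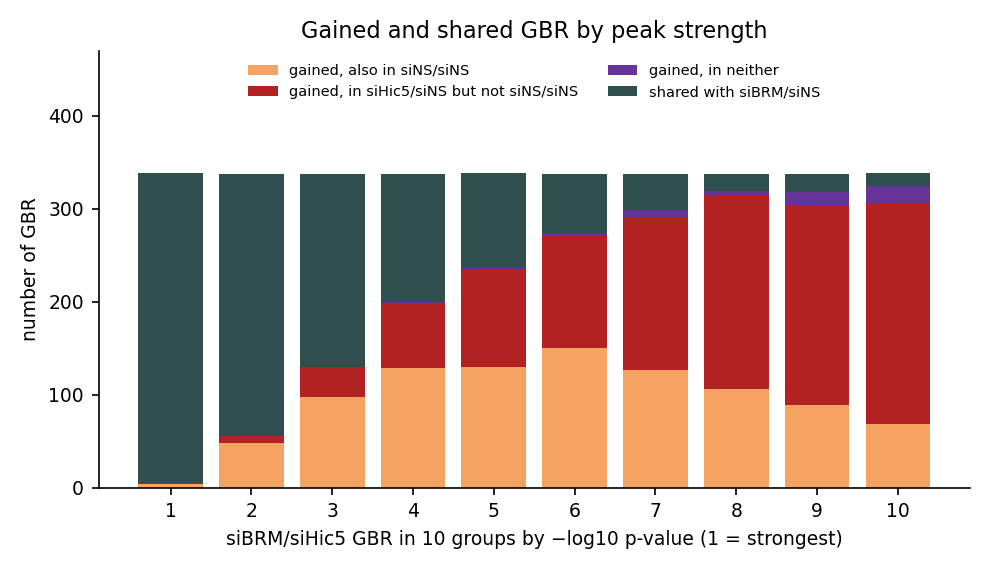
Number of siBRM/siHic5 GBR (y axis) in 10 groups of about equal size by −log10 p-value, strongest at left (x axis), with gained GBR colored by their presence in the siNS/siNS and siHic5/siNS lists and shared GBR on top. Gained GBR made up 1.47% of the strongest group and 95.9% of the weakest.

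Nearly all gained GBR were regions that GR occupied in another condition of the study. Of 2161 gained GBR, 950 (44.0%, Wilson 41.9 to 46.1) were also called in siNS/siNS cells, in which neither Hic-5 nor a remodeler had been depleted. A further 1158 (53.6%, 51.5 to 55.7) were called in siHic5/siNS but not in siNS/siNS cells, and are referred to as blocked GBR. The label rests on these calls alone, without the fold-change and FDR cut-offs that the study also applied. Of the 1158, 111 (9.59%) were called in siCHD9/siNS, where Hic-5 had not been depleted. The remaining 53 (2.45%) were in neither list, and 45 (2.08%) were in none of the 4 other lists. Blocked GBR were the weaker, with a median −log10 p-value of 23.5 against 30.6 for the gained GBR of siNS/siNS cells. Shared GBR had another makeup, with 1191 of 1222 (97.5%) called in siNS/siNS, 31 blocked and 0 in neither list (upper Wilson limit 0.313%).

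Starting from the control list, many GBR that were missing after BRM depletion alone were called when Hic-5 was depleted as well. Of 2582 siNS/siNS GBR, 1234 (47.8%) were called in siBRM/siNS and 2153 (83.4%) in siBRM/siHic5. Of the 1348 missing from siBRM/siNS, 958 (71.1%, Wilson 68.6 to 73.4) were called in siBRM/siHic5. Those 958 had a median −log10 p-value of 17.2 in the siNS/siNS list, against 36.5 for the 1195 called in both BRM depleted lists and 15.1 for the 390 called in neither of them, and 39 were called in siBRM/siNS alone. By score, the 958 were thus close to the GBR absent from both lists and well below those present in both.

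For blocked regions the picture was different in number. Of the 7059 siHic5/siNS GBR that were absent from siNS/siNS, 37 (0.524%) were called in siBRM/siNS and 1182 (16.7%) in siBRM/siHic5. The 1151 that were called in siBRM/siHic5 and not in siBRM/siNS had a median −log10 p-value of 31.7 in the siHic5/siNS list (quartiles 23.5 and 43.5). The 5871 absent from both BRM depleted lists had a median of 17.5 (14.2 and 22.8). Blocked regions called in siBRM/siHic5 cells were thus the higher-scoring ones of the siHic5/siNS list.

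Gained and shared GBR were then compared for their occurrence in the 4 lists that had not defined them. In siHic5/siNS cells 2100 gained GBR (97.2%) and 1220 shared GBR (99.8%) were called, and the odds of gained relative to shared GBR had a ratio of 0.0564 (adjusted p = 3.44e-10, Fisher's exact test, 2-sided, Benjamini-Hochberg over 4 lists). In siNS/siNS cells the shares were 44.0% and 97.5%, with an odds ratio of 0.0204 (Fisher's exact test, adjusted p = 2.00e-260). In siCHD9/siHic5 cells 962 gained (44.5%) and 1059 shared GBR (86.7%) were called, with an odds ratio of 0.123 (Fisher's exact test, adjusted p = 7.41e-139). In siCHD9/siNS cells 420 gained (19.4%) and 924 shared GBR (75.6%) were called, with an odds ratio of 0.0778 (Fisher's exact test, adjusted p = 6.90e-232). Gained GBR were less often called in each list, and these tests compare the regions of the lists, not replicated conditions. Absence from siBRM/siNS defined gained GBR and a call there defined shared GBR. Fewer calls of gained GBR in other lists from the same cell line are therefore partly built into the comparison.

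Since gained GBR were weaker, the odds ratios were also computed within the 10 groups by siBRM/siHic5 score (Cochran-Mantel-Haenszel common odds ratio). They were 0.0685 (95% interval 0.0468 to 0.10) for siNS/siNS, 0.429 (0.347 to 0.530) for siCHD9/siNS and 0.604 (0.482 to 0.758) for siCHD9/siHic5. For siHic5/siNS the interval included 1 (0.321, 0.0780 to 1.32). Within these groups, gained GBR were still less often called in 3 of the 4 lists, with the ratio farthest from 1 in siNS/siNS. Scores still varied within a group, from 103 to 451 in the strongest. The groups do not match the siBRM/siNS signal that defined gained and shared, so the ratios cannot separate that rule from other differences.

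**Figure D3:**
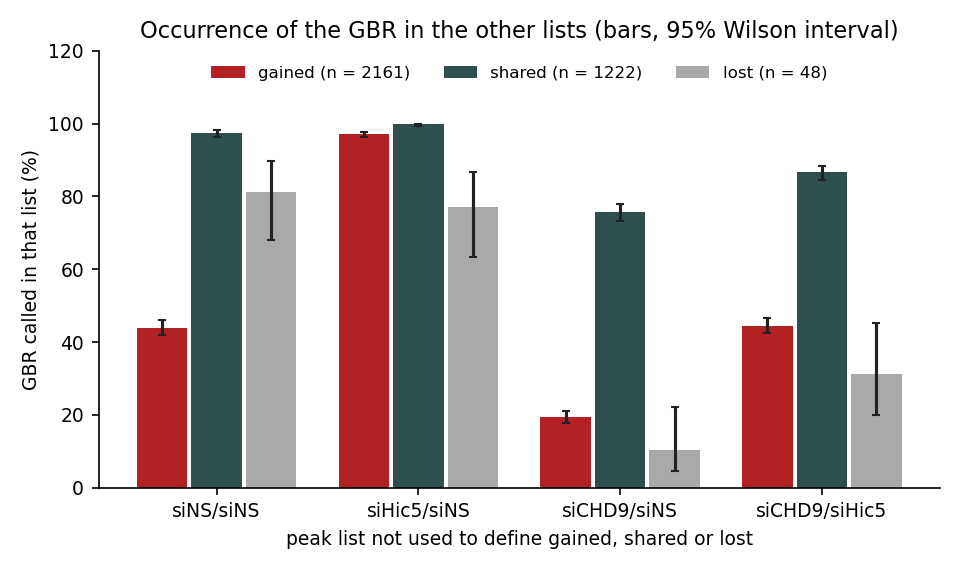
Share of gained, shared and lost GBR (y axis, %) that were called in each of the 4 lists not used to define them (x axis), with 95% Wilson intervals. Gained GBR reached 97.2% in siHic5/siNS, 44.0% in siNS/siNS, 44.5% in siCHD9/siHic5 and 19.4% in siCHD9/siNS.

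Gained GBR were also set beside those of the other Hic-5 comparisons. Of the 2161 GBR gained in BRM depleted cells, 584 (27.0%) overlapped a GBR gained in CHD9 depleted cells, and 586 of the 1128 gained there (52.0%) overlapped one gained with BRM depleted. Of the 2161, 1150 (53.2%) overlapped one of the 7059 gained with neither remodeler depleted, of which 1149 (16.3%) were matched. The commonest pattern was occurrence in siHic5/siNS alone, with 759 gained GBR (35.1%), followed by siNS/siNS and siHic5/siNS together with 347 (16.1%). A further 291 (13.5%) were in these lists and siCHD9/siHic5, 288 (13.3%) were in siHic5/siNS and siCHD9/siHic5, and 276 (12.8%) were in all 4. By comparison 890 shared GBR (72.8%) were in all 4.

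The strongest gained GBR lay upstream of ITGA5, which encodes the α5 integrin subunit of the fibronectin receptor. It spanned chr12:54420898-54421577 in an intergenic region 2.05 kb from the TSS of ITGA5 (minus strand). Its −log10 p-value was 181 in siBRM/siHic5, where it ranked 117 of 3383, 224 in siHic5/siNS, 62.1 in siCHD9/siHic5, 19.0 in siNS/siNS and 15.5 in siCHD9/siNS, and it was not called in siBRM/siNS. Scores of different lists are set side by side, without correction for depth. Its score was higher in the 3 Hic-5 depleted lists than in the lists with Hic-5, where it ranked 1520 of 2582 (siNS/siNS) and 918 of 1415 (siCHD9/siNS). For the BRM depleted pair, the choice of this GBR fixed that order in advance. The order was not particular to it. The strongest shared GBR, at HIF3A, scored 451 in siBRM/siHic5 and 152 in siBRM/siNS. It scored 300 in siHic5/siNS and 269 in siNS/siNS, and 182 in siCHD9/siHic5 and 105 in siCHD9/siNS. A further gained GBR, of the blocked kind, lay within 50 kb of the same TSS.

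The next was in an intron of SLCO2A1, the prostaglandin transporter, at chr3:134035677-134036635. It scored 143 in siBRM/siHic5, 133 in siHic5/siNS, 27.5 in siCHD9/siHic5, 24.1 in siNS/siNS and 14.5 in siCHD9/siNS. The strongest blocked GBR among the gained was in an intron of STAC2, an adaptor of voltage-gated calcium channels, at chr17:39222010-39222767. It scored 109 in siBRM/siHic5, 99.5 in siHic5/siNS and 11.5 in siCHD9/siHic5, and was called in no list with Hic-5 present. Its summit window, printed above, holds a GRE match that reads GGAACAGAATGTTCC.

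The other 7 of the 10 strongest were all called in siNS/siNS as well. They lay in introns of CMKLR1 (chemerin receptor, 105 in siBRM/siHic5), HS1BP3 (103) and RIPOR2 (94.9), in a UTR exon of UBE2E2 (a ubiquitin-conjugating enzyme, 101, 0.029 kb from the TSS), and between genes. The intergenic GBR were nearest to SCARB1, the HDL receptor, at distances of 118 kb (99.1) and 108 kb (95.3), and to POLR1A, the largest subunit of RNA polymerase I, at 87.8 kb (98.1). Of the 10, 8 were called in all 4 other lists, the exceptions being the STAC2 GBR and the SCARB1 GBR at 108 kb, both missing from siCHD9/siNS. In siHic5/siNS the 10 scored from 84.3 (UBE2E2) to 224 (ITGA5), and in siNS/siNS the 9 that were called scored from 16.1 (HS1BP3) to 45.5 (RIPOR2).

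**Figure D4:**
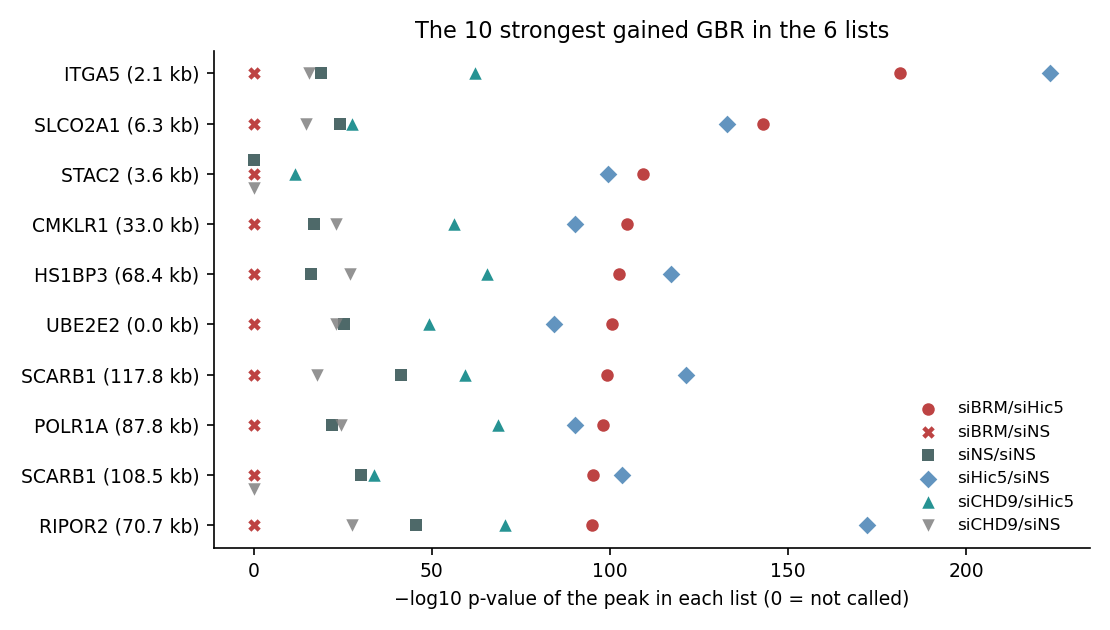
−log10 p-value (x axis, 0 where not called) of the 10 gained GBR with the highest score in siBRM/siHic5, named by the nearest protein-coding TSS with the distance in kb (y axis), in each of the 6 lists. Every one is at 0 in siBRM/siNS by definition and lies at 84.3 or above in siHic5/siNS.

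Gained GBR without a partner in any other list were weak. The strongest lay in introns of MYBPH, a myosin-binding protein (34.8, rank 1555), GUCA1C, a guanylate cyclase activator (34.8, rank 1568), and CACNA2D3, a calcium channel subunit (29.7, rank 1917). Next came GBR 1.83 kb from the TSS of FSTL3, a secreted antagonist of activin (27.4), and in an intron of PLCG1, a phospholipase C (27.4). The first 4 of these held a GRE match and the PLCG1 GBR held an AP-1 match. For contrast, the strongest shared GBR were at HIF3A (451 in siBRM/siHic5 and 152 in siBRM/siNS), near PRR20G (409 and 114), in an intron of FKBP5 (405 and 145), at NFKBIA (403 and 133) and at MT2A (392 and 112), and all 5 were called in every list.

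Lost GBR were few and low in score. The strongest lay in an intron of ARHGEF3, a guanine nucleotide exchange factor (chr3:56995495-56995869), with 23.7 in siBRM/siNS, 28.2 in siNS/siNS, 30.5 in siHic5/siNS and 14.1 in siCHD9/siHic5. The next were near OSMR, the oncostatin M receptor (21.2), TMEM17 (20.3) and MEX3B (18.8), and at SOX5 (17.8). Of the 48, 39 were called in siNS/siNS and 37 in siHic5/siNS, so that most were missing from siBRM/siHic5 although Hic-5 depletion with BRM present had kept them in the list.

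Of the 6 genes that the study used as representatives, the siBRM/siHic5 GBR nearest to the TSS was gained at 2 and shared at 4. The GBR in an intron of ANO2, a calcium-activated chloride channel, was blocked, scored 26.1 and was otherwise called in siHic5/siNS (22.8), at 279 kb from the TSS. The GBR in an intron of RP1L1, a photoreceptor protein, was blocked as well, and scored 22.4 in siBRM/siHic5, 79.9 in siHic5/siNS and 14.1 in siCHD9/siHic5, at 31.4 kb from the TSS. These were not the siHic5/siNS GBR nearest to either TSS, which lay at 119 kb for ANO2 (33.9 in siHic5/siNS) and at 23.1 kb for RP1L1 (18.8) and were called in siHic5/siNS and in none of the other 5 lists. The GBR at MSX2 (196), SCNN1A (276), SPINK13 (133) and IGFBP1 (59.6) were called in all 6 lists, and scored 87.6, 121, 40.7 and 20.6 in siBRM/siNS.

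Gained GBR differed from shared GBR in sequence. GRE, AP-1 and ETS motifs were counted on both strands in the 200 bp around each summit. The GRE was the 15-base palindrome, in which 1 of the 10 defined positions could differ, AP-1 was TGACTCA, and ETS was CCGGAAG or CAGGAAG. A GRE match was found at 1038 gained GBR (48.0%, Wilson 45.9 to 50.1) and at 828 shared GBR (67.8%, 65.1 to 70.3), against 2.45% and 2.54% of windows 5 kb to either side. The odds ratio was 0.440 (2-sided exact test of Fisher, adjusted p = 1.90e-28 over 3 motifs), and 0.593 (0.488 to 0.722) within the 10 score groups. Gained GBR thus had fewer GRE matches than shared GBR and far more than their flanks.

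AP-1, the FOS and JUN family dimer, showed the opposite. Its motif lay at 533 gained GBR (24.7%, 22.9 to 26.5) and 226 shared GBR (18.5%, 16.4 to 20.8), against 3.08% and 3.60% of flanks, with an odds ratio of 1.44 (Fisher's exact test, adjusted p = 4.70e-05). Within groups of equal score the odds ratio was 2.61 (2.03 to 3.35). ETS matches did not differ detectably, with 271 gained (12.5%) and 158 shared GBR (12.9%) against 8.12% and 7.12% of flanks, an odds ratio of 0.966 (Fisher's exact test, adjusted p = 0.747) and a matched odds ratio of 1.18 (0.881 to 1.59). Among all 3383 GBR, 55.2% held a GRE, 22.4% an AP-1 and 12.7% an ETS match. A match describes the sequence and is not a measure of binding by that factor.

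For GRE and AP-1, the blocked ones among gained GBR stood farther from shared GBR than those also called in siNS/siNS, whereas ETS shares were alike in all 3 sets. GRE matches were found at 43.4% (40.5 to 46.2) of the 1158 blocked and 54.2% (51.0 to 57.4) of the 950 in siNS/siNS. AP-1 matches were found at 27.5% (25.1 to 30.2) and 20.9% (18.5 to 23.6), and ETS matches at 13.0% and 12.4%. The study reported an ETS motif enriched at its blocked GBR and not at its non-blocked GBR. It used a de novo motif search in 1 kb windows, and its classes also rested on fold change and FDR. Motif, window and sets of GBR thus differ from those used here, and the ETS shares here do not test that result. None of the 3 motifs was found at 684 gained GBR (31.7%) and 270 shared GBR (22.1%). GC content was similar, at 51.0% (SD 9.66 across GBR) for gained and 51.3% (SD 8.94) for shared windows. These splits were described and not tested.

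**Figure D5:**
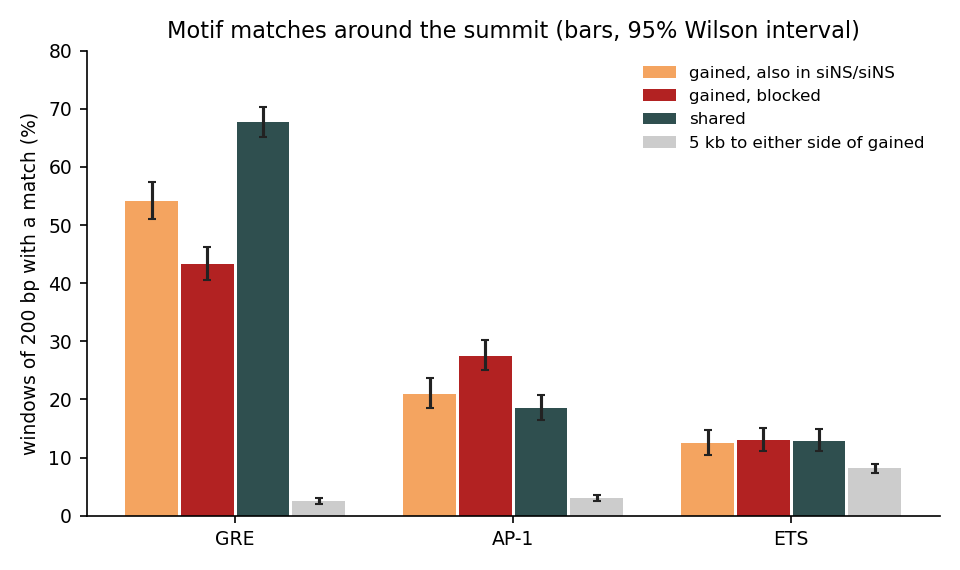
Share of 200 bp summit windows with a motif match (y axis, %) for GRE, AP-1 and ETS (x axis), in gained GBR also called in siNS/siNS, gained blocked GBR, shared GBR and flanks of gained GBR, with 95% Wilson intervals. GRE matches ran from 43.4% at blocked to 67.8% at shared GBR, and AP-1 matches ran the other way, from 27.5% to 18.5%.

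Gained and shared GBR did not differ detectably in their share close to a TSS. Within 5 kb of a protein-coding TSS lay 234 gained (10.8%) and 130 shared GBR (10.6%), which gave an odds ratio of 1.02 (2-sided exact test of Fisher, p = 0.908) and a matched odds ratio of 1.10 (0.809 to 1.50). The median distance to a TSS was 49.7 kb and 55.3 kb. Introns held 43.6% of gained and 41.9% of shared GBR, intergenic sequence 51.8% and 54.0%, coding exons 1.99% and 1.64%, and UTR exons 2.64% and 2.45%. Across 23 chromosomes with at least 20 GBR, the gained share ran from 58.5% (chromosome 5) to 71.2% (chromosome 18). Gained GBR lay a median of 428 kb from the nearest shared GBR, and 17.3% were within 50 kb of one. Shared GBR lay a median of 318 kb from the nearest other shared GBR, with 26.4% within 50 kb, and gained GBR 202 kb from the nearest other gained GBR, with 26.6% within 50 kb. These spacings also follow the number of GBR of each kind and were not tested.

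A small set of gained GBR sat on promoters. The summit of 30 gained GBR (1.39%) and of 8 shared GBR (0.655%) fell in a 300-base RefSeq promoter window (250 bases before to 50 after the start). Among the gained were those of UBE2E2, NDST1, the metallothionein gene MT1X, CTNNB1 (β-catenin) and the actin-associated genes FLNC, ZYX and VASP. The NDST1 promoter (GRCh38.p14, chr5:150497529-150497828, plus strand) is shown because it combined an AP-1 and a GRE match, in capitals in that order. The promoters of BAIAP2 and SPINK13, which carried shared GBR, also held both motifs. NDST1 is an enzyme of heparan sulfate synthesis, and its gained GBR scored 71.6 (rank 605) and was called in all 4 other lists. Of all 21574 promoter windows, 2.80% held a GRE, 4.04% an AP-1 and 24.0% an ETS match.
NDST1: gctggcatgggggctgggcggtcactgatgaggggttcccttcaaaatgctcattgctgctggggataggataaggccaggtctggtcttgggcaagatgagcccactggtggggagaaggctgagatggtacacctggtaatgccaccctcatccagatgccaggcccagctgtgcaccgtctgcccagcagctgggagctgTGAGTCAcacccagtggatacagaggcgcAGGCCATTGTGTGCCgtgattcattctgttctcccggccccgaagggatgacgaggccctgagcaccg

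To ask near which genes the gained GBR lay, protein-coding genes were counted with a gained GBR within 50 kb of the TSS. Of 19701 genes, 1711 had at least 1 gained GBR (8.68%), 1008 had a shared GBR (5.12%), 1427 had a gained and no shared GBR (7.24%) and 29 had a lost GBR (0.147%). Of the 1711, 284 (16.6%) also had a shared GBR. Distance does not show which gene a GBR acts on, and neighboring genes can share the same GBR.

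Most of these genes had 1 gained GBR, and 258 had more. LIF, a cytokine of the interleukin-6 family, had 5, the strongest at 78.8, with 2 shared GBR besides. GRAMD4, LFNG (a glycosyltransferase that modifies Notch), SLC2A1 (the glucose transporter GLUT1), PTGIS (prostacyclin synthase) and TNS4 (a tensin of focal adhesions) had 4 each. The first 4 of these 5 had 0 shared GBR within 50 kb. All 4 of GRAMD4 were blocked, and 3 of 4 were at LFNG and PTGIS. A further 29 genes were tied at 3, among them the cytokine gene OSM beside LIF, PDGFB, and STAC2 with its neighbors CACNB1 and RPL19, which shared their GBR.

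Gene lists chosen for GR, Hic-5 and this cell type were then described by the same count, beside 8.68% of all genes for a gained and 5.12% for a shared GBR. Over the 213 genes of the 9 lists, 55 (25.8%) had a gained GBR, 36 (16.9%) a shared GBR and 2 (0.939%) a lost GBR. A gained and no shared GBR was found for 40 (18.8%). The lists together were thus above the share of all genes for gained and shared GBR alike.

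Of 30 genes of the core glucocorticoid response, 12 (40.0%) had a gained and 15 (50%) a shared GBR, and 5 had gained GBR alone. A gained GBR of CRISPLD2, a secreted glucocorticoid-induced protein, scored 49.2, beside a shared one at 43.7. DUSP1, a MAP kinase phosphatase, had a blocked GBR 24.4 kb upstream (40.8) beside a shared GBR at 1.36 kb (88.3). KLF9, a transcription factor, had a gained GBR at 24.1 kb (39.5) beside a shared one at 5.46 kb (183), and TNFAIP3, an inhibitor of NF-κB signaling, had a gained GBR alone (28.5). Except at CRISPLD2, the gained GBR beside a shared one in these examples was the weaker of the pair.

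Of 44 genes of integrins and focal adhesions, the structures where Hic-5 itself is found, 13 (29.5%) had a gained and 7 (15.9%) a shared GBR. Gained GBR alone were found for 11 (25%, Wilson 14.6 to 39.4), against 7.24% of all genes. The share over the 213 genes of all lists, 18.8%, lay within that interval. Besides ITGA5 the genes with a gained GBR included ITGA7, an integrin of the laminin receptors (77.0), PARVA, a parvin that binds integrin-linked kinase (70.3), and TNS4 (54.8). PXN, the gene of paxillin, had a blocked GBR in an intron (54.6), which was however also called in siCHD9/siNS, with Hic-5 present. Other blocked GBR lay near the scaffold gene BCAR1 (39.2) and at the promoters of FLNC and ZYX. The genes with a shared GBR were ITGA10, ITGB4, ITGB6, PTK2, PTK2B, TNS2 and TNS4, of which ITGB4 and TNS4 had a gained GBR as well.

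Of 23 genes of TGF-β signaling, 7 (30.4%) had a gained GBR, all without a shared one, and 2 (8.70%), SKIL and LTBP2, had a shared GBR alone. The gained GBR lay near SKI, a repressor of SMAD transcription (44.9, blocked), SMURF2, a ubiquitin ligase of the pathway (39.8), TGIF1, a corepressor (38.0), the inhibitory SMAD6 (31.8), SMAD9, SMAD7 and the ligand gene TGFB1. The GBR counted for TGFB1 lay 43.7 kb downstream of its TSS, in the promoter window of CCDC97.

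Of 24 genes that restrain inflammation, 11 (45.8%) had a gained, 6 (25%) a shared and 2 (8.33%) a lost GBR. The strongest gained GBR were near the phosphatase genes DUSP2 (77.0), DUSP1 (40.8) and DUSP6 (39.1) and the mRNA decay factor gene ZFP36L1 (30.2, blocked). DUSP2 and DUSP1 also had a stronger shared GBR, 18.4 kb (289) and 1.36 kb (88.3) upstream of the TSS. Gained GBR without a shared one were found for 7 of the 11 genes. A lost GBR lay near DUSP4, another phosphatase gene (13.5 in siBRM/siNS). This list overlaps that of the core response in NFKBIA, TNFAIP3, ZFP36, DUSP1 and TSC22D3.

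Of 16 AP-1 subunit genes, 5 (31.2%) had a gained and 3 (18.8%) a shared GBR. The gained GBR were near FOSB (52.7), JUNB (33.7), MAFK (33.5), JUND (21.4) and FOS (18.5), those of JUND and FOS being blocked. JUNB also had a shared GBR, with a score of 33.7 as well. Of 26 ETS factor genes, 5 (19.2%) had a gained and 2 (7.69%) a shared GBR, with the strongest gained one near ETV4 (91.4), followed by ERF (30.7, blocked), ELK3 (25.5) and SPI1 (24.3, blocked). EHF had a gained GBR that scored 20.6 beside a shared one that scored 30.7.

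Of 17 circadian clock genes, 4 (23.5%) had a gained and 3 (17.6%) a shared GBR, and 2 had gained GBR alone. The gained ones were near BHLHE40 (32.2, 47.2 kb from the TSS), PER1 (28.4, blocked, 0.484 kb from the TSS), TEF (24.6) and NR1D2 (21.8, blocked). PER1 also had a stronger shared GBR 2.06 kb upstream of its TSS (278), and BHLHE40 had one at 0.451 kb (67.6). Of 16 osteoblast genes, 2 (12.5%) had a gained GBR, COL1A1 (35.5), which encodes a chain of type I collagen, and MSX2 (33.7), a homeobox factor. MSX2 also had a shared GBR (196). Of 25 remodeler and GR coregulator genes, 2 (8%) had a gained GBR, close to the 8.68% of all genes. CHD9, the remodeler itself, was among them, with a blocked GBR in an intron (49.6) that was also called in siHic5/siNS and siCHD9/siHic5.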

How the data were processed

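GR ChIP-seq was performed on U2OS-GRα cells in 6 siRNA groups of 2 libraries each. According to the study's methods and the labels, the authors mapped reads to GRCh38/hg38 with BWA and called peaks with MACS2 on pooled replicates, followed by IDR. Tool versions are not given in the sources used here. The deposited lists carry no header and were read in the narrowPeak layout, with a score, a signal value, a −log10 p-value, a −log10 q-value and a summit offset. The score and signal columns were not used in any comparison. The files hold no read totals, and those the study gives were not used here, so precision is given by counting intervals alone.

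Overlap of at least 1 bp defined gained, shared and lost GBR. The members, gene lists and tests were chosen with earlier results of these data known. Named were the 10 strongest gained GBR, the 5 strongest of each other kind, genes with most gained GBR (6 genes with 4 or more, before a tie of 29), up to 4 members per gene list by −log10 p-value, and 6 representative genes. Further list members and promoters were named after their values were seen. TSS were those of protein-coding genes in GENCODE 44. Shares have 95% Wilson intervals, and differences between gained and shared GBR were tested with Fisher's exact test (2 sides, Benjamini-Hochberg adjustment) and by Cochran-Mantel-Haenszel odds ratios within 10 groups of the siBRM/siHic5 list ordered by −log10 p-value. All 213 list genes were found in the annotation. Overlap counts, matched odds ratios and motif searches were tested on simulated data. Other overlap rules, thresholds, windows and patterns were tried. Tests ran in Python 3.11.15 with statsmodels 0.14.6 and SciPy 1.17.1, tables in pandas 2.3.3 over NumPy 2.4.6, sequence access in pysam 0.24.0 and samtools 1.23.1, overlap checks in bedtools 2.31.1 and plots in Matplotlib 3.10.9. Input libraries were not analysed here, and a few list members are not reported here.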

Additional observations from a re-analysis of the deposited data

How the results depend on the processing

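The number of gained GBR was 2161 under each of 3 overlap rules, 2753 with the q-value threshold of siBRM/siHic5 applied to both lists and 2053 at a −log10 q-value of at least 20, but 258 with the 1000 strongest peaks of each list. Lost GBR numbered 4, 0 and 250 in the last 3 settings. With the common threshold applied to all lists, gained GBR were called at 31.2% in siNS/siNS, 92.7% in siHic5/siNS, 28.3% in siCHD9/siHic5 and 8.43% in siCHD9/siNS, which follows from the fewer peaks that the threshold leaves. Matched for score, the odds ratio for siHic5/siNS was 0.321 with an interval that included 1, and that for ETS turned from below 1 to 1.18, both sides being within counting error. For a TSS within 5 kb it turned to 0.868 with the common threshold (Fisher's exact test, p = 0.318). Genes with a gained GBR numbered 415 within 10 kb and 3190 within 100 kb, since the window sets them. GRE and AP-1 odds ratios kept direction and call in all settings run, from 0.382 to 0.593 and from 1.33 to 2.61. No paired analysis was possible because each list pools its replicates, and for the same reason no replicate could be left out. The lists were not corrected for depth, and its part in the number of gained GBR was not tested.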
